A study of Mus musculus with 16 samples.

Results

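Genes that mark intestinal macrophages and dendritic cells were followed through the duodenum and ileum of mice that lack, or keep, the gut transcription factor gene Neurog3. The set holds 10 genes picked by symbol (C1qa, C1qb, C1qc, Csf1r, Adgre1, Cx3cr1, Cd163, Mrc1, Flt3 and Itgax), and all 10 were found among the 55359 Ensembl identifiers of the count table. Mutants carried Neurog3f/f; Villin-CreERT2 and controls carried Neurog3f/f alone, so the floxed alleles are common to both. All were adult C57BL/6N males fed a high fat diet, and tissue was taken 5 weeks after the tamoxifen. The Villin promoter drives the tamoxifen-dependent Cre in gut epithelium and not in macrophages or dendritic cells. Duodenum and ileum were taken from each, which gives 4 groups of 4 libraries: mutant duodenum, control duodenum, mutant ileum and control ileum. Numbers in the titles are read as mouse numbers, so each of 8 mice gave both tissues; mutants are called M136, M167, M168 and M177 and controls C133, C134, C151 and C154, and per-library values are listed in that order.

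Most macrophages of the gut wall derive from blood monocytes that settle in the lamina propria, where they take up apoptotic cells and microbes. They depend on the receptor CSF1R, and as they mature they carry F4/80 (Adgre1) and CX3CR1. They also make C1q, the recognition unit of the classical complement pathway. Longer-lived macrophages sit beside vessels, enteric neurons and smooth muscle. Conventional dendritic cells come from bone marrow precursors that need the receptor FLT3, and they share CD11c (Itgax) with many macrophages.

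Libraries held 40.9 to 67.2 M counts. A single member in a single library held between 32 counts (Flt3 in the ileum of M136) and 8589 counts (Csf1r in the duodenum of C154). Levels are in CPM, counts relative to a library total scaled with trimmed means (TMM). Neurog3 stood at 0 to 0.0234 CPM in mutant duodenum against 2.42 to 2.81 CPM in control duodenum, and at 0 to 0.0166 CPM in mutant ileum against 0.558 to 1.03 CPM in control ileum. Some libraries stood apart in the level of pancreas or follicle genes, and the reason was not tested. Exocrine pancreas genes, 18 on the list, summed to 13500, 233000, 54800 and 227000 CPM in mutant duodenum, against 39800, 2660, 26100 and 3330 CPM in control duodenum. B cell and lymphoid follicle genes, 12 on the list, summed to 6.62 to 11.1 CPM in mutant ileum, against 15.4, 214, 19.2 and 245 CPM in control ileum.

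In mutant duodenum 7 of the 10 genes fell and 1 rose, against 5.11% and 3.44% of 17611 tested genes (8.55% in either direction). C1qa, C1qb, C1qc, Adgre1, Cx3cr1, Flt3 and Itgax fell, and Cd163 rose. A gene was called at an adjusted p under 0.05 in edgeR's quasi-likelihood test, with Benjamini-Hochberg adjustment over all tested genes. In mutant ileum 8 of 10 fell and 1 rose, against 14.6% and 19% of 18310 tested genes (33.6% in either direction). Csf1r was among the ileal falls, and the ileal rise was in Mrc1. The median log2 fold change of the 10 genes was -0.57 in the duodenum and -0.69 in the ileum, beside 0.02 and -0.03 over all tested genes. In bulk tissue, fewer cells of a type and less RNA per cell cannot be told apart. Without C134 and C154, the controls rich in follicle genes, 4 in the duodenum and 5 in the ileum fell and 0 rose in either tissue, while 0.893% of tested genes fell and 0.203% rose in the duodenum, and 8.72% fell and 12.4% rose in the ileum. Log2 fold changes of the members that no longer passed were C1qc (-0.55), Cx3cr1 (-0.48), Cd163 (0.94) and Itgax (-0.58) in the duodenum, and C1qa (-0.50), C1qb (-0.47), C1qc (-0.54) and Mrc1 (0.36) in the ileum. The counts without M167 and M177, the mutants rich in pancreas genes in the duodenum, were 5 in the duodenum and 5 in the ileum, with 0 rising, while 1.66% of tested genes fell and 0.763% rose in the duodenum, and 10.9% fell and 18.3% rose in the ileum. Those no longer passing had Cx3cr1 (-0.53), Cd163 (0.79) and Itgax (-0.49) in the duodenum, and C1qa (-0.57), C1qb (-0.47), C1qc (-0.49) and Mrc1 (0.37) in the ileum. In the ileum M168 had the highest pancreas sum, at 5760 CPM.

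**Figure D1:**
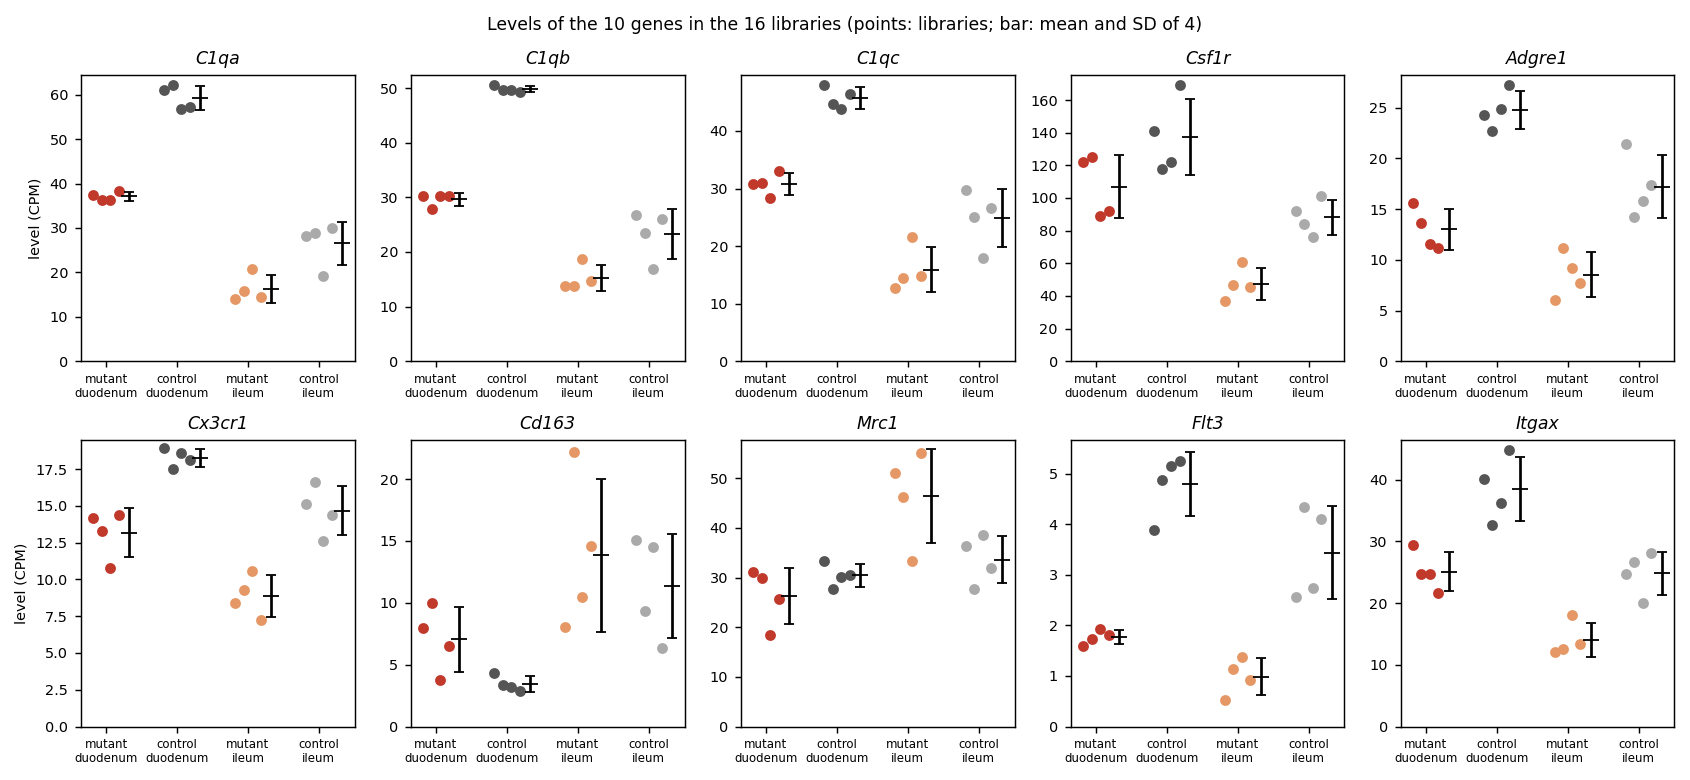
Level in CPM (vertical axes, linear from 0) of each of the 10 genes in mutant duodenum, control duodenum, mutant ileum and control ileum; points are libraries, and the bar beside them is the mean and SD of 4. The C1q genes, Adgre1, Cx3cr1, Flt3 and Itgax are lower in every mutant duodenum than in every control. In the ileum Mrc1 is above all controls in every mutant but M168, while Cd163 is above them in M167 only.

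All 3 chains of C1q fell in both tissues of the mutants. C1qa, C1qb and C1qc encode the A, B and C chains of one protein, and RefSeq (GRCm38.p6) lists them next to each other on chromosome 4. The promoter windows of C1qb (chr4:136886151-136886450, minus strand) and C1qc (chr4:136892865-136893164, minus strand) are printed because these neighbours moved together. A window runs from 250 bases before to 50 bases after the gene start in RefSeq, build GRCm38.p6, 5′ to 3′ along the gene. Capitals mark GAGGAA or its reverse complement TTCCTC, the core bound by PU.1, the macrophage transcription factor that Spi1 encodes.
C1qb: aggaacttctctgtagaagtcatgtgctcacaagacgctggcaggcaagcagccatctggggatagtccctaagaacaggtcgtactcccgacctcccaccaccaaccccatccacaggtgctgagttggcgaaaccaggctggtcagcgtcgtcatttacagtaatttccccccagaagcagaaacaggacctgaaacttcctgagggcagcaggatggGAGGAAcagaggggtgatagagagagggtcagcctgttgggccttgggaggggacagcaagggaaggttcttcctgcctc
C1qc: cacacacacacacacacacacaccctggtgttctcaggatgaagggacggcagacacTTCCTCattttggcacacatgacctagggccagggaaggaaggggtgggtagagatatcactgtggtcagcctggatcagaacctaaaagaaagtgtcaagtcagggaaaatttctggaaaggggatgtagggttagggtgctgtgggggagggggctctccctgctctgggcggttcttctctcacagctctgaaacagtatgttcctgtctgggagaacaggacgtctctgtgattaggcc
C1qb holds the motif once, 30 bases before its start, and C1qc once, 193 bases before its start.

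C1qa stood at 37.5, 36.2, 36.4 and 38.3 CPM in mutant duodenum, against 61.1, 62.1, 56.7 and 57.2 CPM in control duodenum. C1qb stood at 30.2, 27.8, 30.3 and 30.2 CPM in mutant duodenum, against 50.6, 49.6, 49.7 and 49.3 CPM in control duodenum. C1qc stood at 30.8, 31, 28.3 and 33.1 CPM in mutant duodenum, against 48, 44.7, 43.8 and 46.4 CPM in control duodenum. For each chain all mutant duodena lay below all controls, and the spread within a group was small beside the gap. The log2 fold changes were -0.65 ± 0.08 (adjusted p = 0.0017) for C1qa, -0.72 ± 0.08 (adjusted p = 0.000773) for C1qb and -0.54 ± 0.09 (adjusted p = 0.00732) for C1qc, where ± gives the SE here and below. Without C134 and C154 the duodenal call of C1qc was lost (-0.55, adjusted p = 0.0886). Over the 10 genes, 7 had all mutant duodena below all controls (all but Csf1r, Cd163 and Mrc1), against 11.4% of tested genes.

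In the ileum the 3 chains were more spread. C1qa stood at 13.9, 15.9, 20.7 and 14.5 CPM in mutant ileum, against 28.1, 28.9, 19.3 and 29.9 CPM in control ileum. C1qb stood at 13.8, 13.7, 18.8 and 14.6 CPM in mutant ileum, against 26.8, 23.4, 16.8 and 26.1 CPM in control ileum. C1qc stood at 12.8, 14.4, 21.6 and 14.8 CPM in mutant ileum, against 29.8, 25, 18 and 26.7 CPM in control ileum. The groups overlapped through M168, the highest mutant, and C151, the lowest control, for each chain. The ileal log2 fold changes were -0.68 ± 0.17 (adjusted p = 0.00929) for C1qa, -0.59 ± 0.16 (adjusted p = 0.0156) for C1qb and -0.62 ± 0.19 (adjusted p = 0.0272) for C1qc. The C1qc call was lost without M136, M167, M177, C133, C134 or C154 (log2 values of -0.52, -0.57, -0.58, -0.53, -0.61 and -0.57). Without C134 and C154 the ileal calls of C1qa (-0.50, adjusted p = 0.094) and C1qb (-0.47, adjusted p = 0.112) were lost as well, as they were without M167 and M177 (-0.57, adjusted p = 0.0847 for C1qa and -0.47, adjusted p = 0.117 for C1qb).

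Proportions among the chains are given with no test. Counts of C1qb relative to C1qa were 0.798 ± 0.0269 in mutant duodenum, against 0.841 ± 0.0354 in control duodenum, and 0.941 ± 0.0705 in mutant ileum, against 0.876 ± 0.0595 in control ileum (mean ± SD, n = 4 each). Counts of C1qc relative to C1qa were 0.83 ± 0.0405 in mutant duodenum, against 0.772 ± 0.0382 in control duodenum, and 0.973 ± 0.0686 in mutant ileum, against 0.937 ± 0.0857 in control ileum. After the group means were removed, log2 CPM of the 3 chains correlated pairwise at 0.91 to 0.92 over 16 libraries from 8 mice, a description with no test.

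Csf1r encodes the receptor for CSF1 and IL-34 on which tissue macrophages depend. Csf1r stood at 122, 125, 88.7 and 92.2 CPM in mutant duodenum, against 141, 118, 122 and 169 CPM in control duodenum. M136 and M167 lay within the control range, and the log2 fold change of -0.33 ± 0.16 did not pass (95% interval -0.69 to 0.02; adjusted p = 0.191). Csf1r stood at 36.9, 46.8, 60.7 and 45.3 CPM in mutant ileum, against 92.1, 84.1, 76 and 101 CPM in control ileum. All mutant ilea were below all controls, and the fall was -0.87 ± 0.15 (adjusted p = 0.00132), a call kept in all 21 alternative fits.

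Flt3, the receptor that dendritic cell precursors need, had the lowest fold change of the set in both tissues. Flt3 stood at 1.59, 1.73, 1.92 and 1.81 CPM in mutant duodenum, against 3.88, 4.88, 5.16 and 5.26 CPM in control duodenum. Flt3 stood at 0.53, 1.13, 1.38 and 0.915 CPM in mutant ileum, against 2.57, 4.35, 2.74 and 4.1 CPM in control ileum. Every mutant library lay below every control of its tissue. Flt3 was the member with fewest counts over all libraries, with 312 counts over the libraries of mutant duodenum against 1010 in control duodenum, and 243 in mutant ileum against 746 in control ileum. The log2 fold changes were -1.42 ± 0.17 (adjusted p = 0.0013) in the duodenum and -1.77 ± 0.31 (adjusted p = 0.00151) in the ileum, and both calls held in all 21 alternative fits of their tissue.

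Adgre1 encodes F4/80, an adhesion receptor that is the classical mouse macrophage antigen. Adgre1 stood at 15.6, 13.6, 11.6 and 11.2 CPM in mutant duodenum, against 24.3, 22.7, 24.9 and 27.2 CPM in control duodenum. Adgre1 stood at 6.06, 11.2, 9.23 and 7.7 CPM in mutant ileum, against 21.4, 14.2, 15.8 and 17.4 CPM in control ileum. The genotypes overlapped in neither tissue. Adgre1 fell in the duodenum, with -0.90 ± 0.13 (adjusted p = 0.00406), and in the ileum, with -0.98 ± 0.19 (adjusted p = 0.00302), and these calls also held in all 21 alternatives of each tissue.

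Cx3cr1 encodes the receptor for fractalkine, carried by mature macrophages of the lamina propria. Cx3cr1 stood at 14.2, 13.3, 10.8 and 14.4 CPM in mutant duodenum, against 18.9, 17.5, 18.6 and 18.1 CPM in control duodenum. Cx3cr1 stood at 8.38, 9.27, 10.6 and 7.25 CPM in mutant ileum, against 15.1, 16.6, 12.6 and 14.4 CPM in control ileum. Again neither tissue showed overlap. The duodenal change of -0.44 ± 0.12 (adjusted p = 0.0415) passed narrowly and was lost without M167, M168, M177, C133, C134, C151 or C154 (log2 values of -0.46, -0.36, -0.49, -0.43, -0.46, -0.44 and -0.45). The ileal change of -0.70 ± 0.14 (adjusted p = 0.00336) was lost in 1 of 21 alternatives, the one with the follicle genes as a covariate (-0.56, adjusted p = 0.0782).

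Itgax encodes CD11c, the integrin chain of dendritic cells, many gut macrophages and some intraepithelial lymphocytes. Itgax stood at 29.4, 24.8, 24.7 and 21.6 CPM in mutant duodenum, against 40.2, 32.7, 36.2 and 44.8 CPM in control duodenum. Itgax stood at 12.1, 12.6, 18.1 and 13.4 CPM in mutant ileum, against 24.7, 26.6, 20 and 28.1 CPM in control ileum. No mutant library reached a control of its tissue. The log2 fold changes were -0.59 ± 0.13 (adjusted p = 0.0248) in the duodenum and -0.80 ± 0.15 (adjusted p = 0.0024) in the ileum. The duodenal call was lost without M167, M177, C133, C151 or C154 (log2 values of -0.59, -0.52, -0.57, -0.62 and -0.50), and the ileal call with the follicle covariate (-0.55, adjusted p = 0.0771). Over the 10 genes, 5 had all mutant ilea below all controls (Csf1r, Adgre1, Cx3cr1, Flt3 and Itgax), against 15.5% of tested genes. None had all mutants above all controls, against 7.38% of tested genes in the duodenum and 17% in the ileum.

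**Figure D2:**
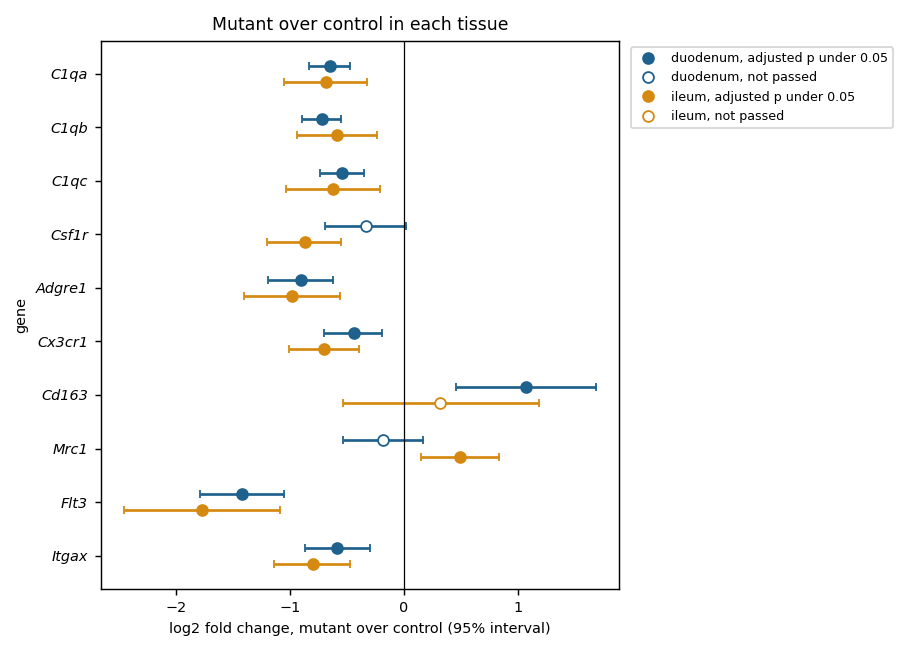
Log2 fold change of mutant over control (horizontal axis) for the 10 genes (vertical axis) in the duodenum and the ileum; bars are 95% intervals from the edgeR fit, filled points have an adjusted p under 0.05 and open points do not. Flt3 lies farthest left in both tissues, at -1.42 and -1.77, and Cd163 (duodenum) and Mrc1 (ileum) are the filled points right of 0.

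The scavenger receptor genes did not move with the others. Cd163 encodes the receptor that clears haemoglobin bound to haptoglobin, and Mrc1 the mannose receptor CD206; both mark tissue-resident macrophages, and Mrc1 is also transcribed in lymphatic endothelium. Their promoter windows are printed because these are the members that rose, Mrc1 (chr2:14229164-14229463, plus strand) and Cd163 (chr6:124304401-124304700, plus strand), with the same window, build and capitals as for C1q.
Mrc1: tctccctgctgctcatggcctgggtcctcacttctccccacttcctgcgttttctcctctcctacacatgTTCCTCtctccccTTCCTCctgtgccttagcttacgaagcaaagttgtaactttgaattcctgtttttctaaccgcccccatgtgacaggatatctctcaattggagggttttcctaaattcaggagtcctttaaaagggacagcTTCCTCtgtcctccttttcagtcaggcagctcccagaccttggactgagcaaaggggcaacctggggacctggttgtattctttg
Cd163: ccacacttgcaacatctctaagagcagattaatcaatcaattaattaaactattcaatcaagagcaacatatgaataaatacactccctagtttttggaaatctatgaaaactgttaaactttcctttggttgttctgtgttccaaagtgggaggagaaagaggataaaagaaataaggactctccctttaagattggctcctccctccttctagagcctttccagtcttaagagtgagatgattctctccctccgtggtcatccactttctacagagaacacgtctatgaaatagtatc
Mrc1 holds the motif 3 times, each before its start, and these letters are not in the Cd163 window.

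Cd163 stood at 7.97, 10, 3.78 and 6.49 CPM in mutant duodenum, against 4.36, 3.35, 3.16 and 2.87 CPM in control duodenum. M168 lay within the control range and the other mutants above it. Cd163 rose, with a log2 fold change of 1.07 ± 0.27 (adjusted p = 0.0397), and the call was lost without any 1 mouse other than M168, with values of 0.84 to 1.21. Cd163 stood at 8.06, 22.2, 10.5 and 14.6 CPM in mutant ileum, against 15.1, 9.35, 14.5 and 6.35 CPM in control ileum. The groups overlapped broadly, and the value of 0.32 ± 0.37 did not pass (95% interval -0.53 to 1.18; adjusted p = 0.537). Its sign rests on M167, since it was -0.01 without that library.

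Mrc1 stood at 31.1, 30, 18.5 and 25.6 CPM in mutant duodenum, against 33.4, 27.6, 30.2 and 30.5 CPM in control duodenum. The groups overlapped and the log2 fold change of -0.18 ± 0.16 did not pass (95% interval -0.53 to 0.17; adjusted p = 0.471). Mrc1 stood at 51.1, 46.3, 33.3 and 55 CPM in mutant ileum, against 36.3, 27.7, 38.5 and 32 CPM in control ileum. M168 lay among the controls and the other mutants above them. Mrc1 rose there, with 0.49 ± 0.15 (adjusted p = 0.0312), a call lost without M136, M167, M177, C133, C134 or C154 (log2 values of 0.45, 0.49, 0.40, 0.52, 0.41 and 0.48).

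Smooth muscle genes varied between the same libraries. The summed level of 10 such genes was 1490, 1890, 1280 and 1070 CPM in mutant duodenum, against 1250, 1160, 1200 and 913 CPM in control duodenum. In the ileum it was 2700, 3350, 2920 and 4440 CPM in mutants, against 3370, 2490, 3540 and 2450 CPM in controls. Of these 10 genes 1 rose in the duodenum and 2 in the ileum, and none fell. Over all tested genes 3.44% rose in the duodenum and 19% in the ileum, so the ileal count is near that background. With their level as a covariate Cd163 no longer passed in the duodenum (0.79, adjusted p = 0.0977), nor Mrc1 in the ileum (0.41, adjusted p = 0.0568). With the pancreas level as a covariate Cd163 did not pass in the duodenum (0.88, adjusted p = 0.287).

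Set against Csf1r in the same library, each scavenger receptor gene had all mutants above all controls in 1 tissue. Csf1r itself fell in the ileum (-0.87), so a ratio to it rises there even where the other gene does not change. The share of all genes whose ratio to Csf1r separates the genotypes was not computed. Counts of Mrc1 relative to Csf1r were 1.39, 0.988, 0.548 and 1.22 in mutant ileum, against 0.393, 0.329, 0.507 and 0.316 in control ileum. Counts of Cd163 relative to Csf1r were 0.0653, 0.0805, 0.0426 and 0.0704 in mutant duodenum, against 0.0311, 0.0284, 0.0259 and 0.017 in control duodenum. In the other tissue the groups overlapped for both. There the ratio of Mrc1 to Csf1r was 0.245 ± 0.0289 in mutant duodenum and 0.225 ± 0.03 in control duodenum, and that of Cd163 to Csf1r was 0.297 ± 0.134 in mutant ileum and 0.132 ± 0.057 in control ileum (mean ± SD, n = 4 each). Flt3 relative to Csf1r was 0.017 ± 0.00426 in mutant duodenum, against 0.0356 ± 0.00731 in control duodenum, and 0.0204 ± 0.00434 in mutant ileum, against 0.039 ± 0.00991 in control ileum, and all mutants lay below all controls of their tissue. Itgax relative to Csf1r was 0.238 ± 0.0325 in mutant duodenum and 0.281 ± 0.0133 in control duodenum, and 0.297 ± 0.0241 in mutant ileum and 0.281 ± 0.024 in control ileum. Adgre1 relative to Csf1r was 0.128, 0.109, 0.131 and 0.122 in mutant duodenum, against 0.173, 0.192, 0.204 and 0.161 in control duodenum, with all mutants below all controls, and 0.181 ± 0.039 in mutant ileum and 0.195 ± 0.0302 in control ileum. Relative to C1qa instead, Mrc1 was 1.6 to 3.8 in mutant ileum against 0.958 to 1.99 in control ileum, so the groups overlapped. Cd163 relative to C1qa was 0.104 to 0.277 in mutant duodenum against 0.0503 to 0.0715 in control duodenum, with no overlap. Whether Mrc1 separates the ileal groups thus depends on the gene it is divided by. The ratios were chosen after the levels were seen and carry no test.

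**Figure D3:**
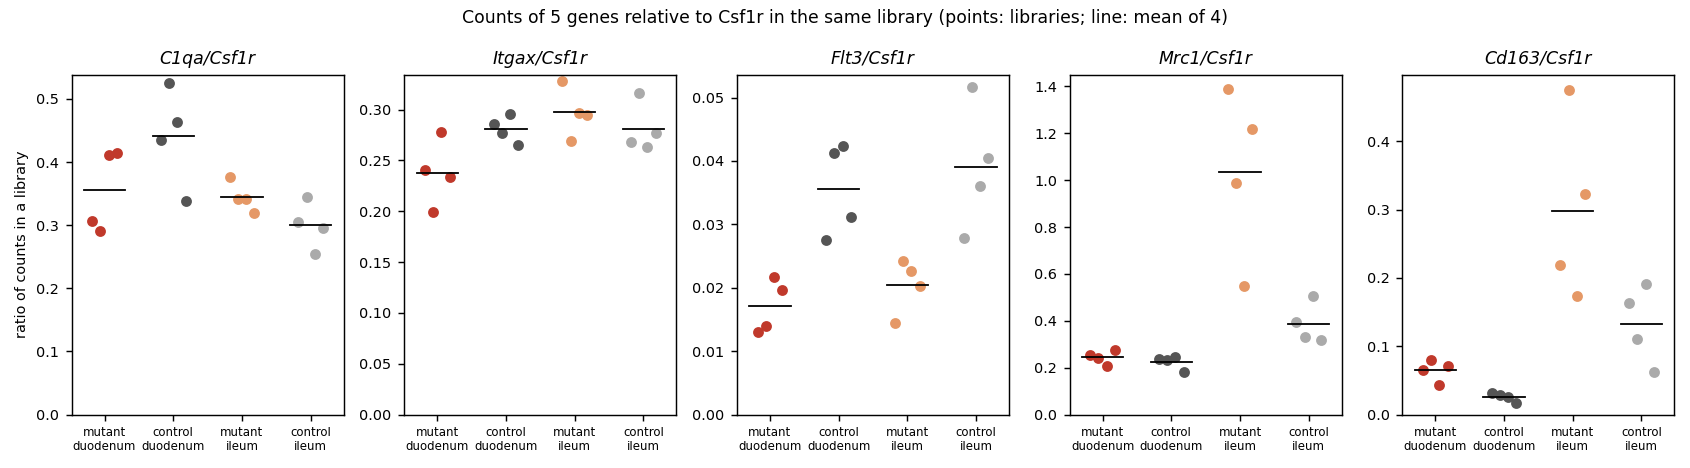
Counts of C1qa, Itgax, Flt3, Mrc1 and Cd163 divided by counts of Csf1r in the same library (vertical axes, linear from 0) in mutant duodenum, control duodenum, mutant ileum and control ileum; points are libraries and lines are means of 4. The ratio of Mrc1 is 0.548 to 1.39 in mutant ileum, above all control ilea, and the ratio of Flt3 is lower in all mutants than in all controls of the same tissue.

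Whether the genotype effect differed between tissues was tested as the ileal minus the duodenal log2 fold change. With edgeR 0 of the 10 genes passed, against 4.13% of 19289 tested genes below 0 and 4.86% above it (8.99% in all), and 2 had an unadjusted p under 0.05. These were Csf1r, with -0.55 ± 0.23 (adjusted p = 0.114), and Mrc1, with 0.66 ± 0.23 (adjusted p = 0.0793). With the mouse as a block Mrc1 passed (0.67, adjusted p = 0.00615), as it did in the DESeq2 test (0.68, adjusted p = 0.047). Without M168 both passed, Csf1r (-0.77, adjusted p = 0.0355) and Mrc1 (0.65, adjusted p = 0.0329). Over all tested genes 10% passed below 0 and 10.8% above it with the block. These shares were 7.87% and 9.76% with DESeq2, and 5.07% and 5.15% without M168, so a single passing member is near that background. For Cd163 the difference was -0.77 with a 95% interval of -1.83 to 0.29. The averaged effect treats the tissues of a mouse as separate replicates although they were correlated, so its p-values may be too small. Averaged over both tissues, the genotype effect passed below 0 in 8 genes, against 16% of tested genes (15.8% above 0 and 31.8% in all), from -0.60 ± 0.11 for C1qc to -1.61 ± 0.18 for Flt3. The averaged value was 0.67 ± 0.25 (adjusted p = 0.0527) for Cd163 and 0.13 ± 0.12 (adjusted p = 0.444) for Mrc1. With the mouse as a random effect in limma-voom 8 genes passed below 0 and 0 above it, against 12.8% and 12.1% of tested genes.

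Between tissues, most members were lower in the ileum than in the duodenum. In mutant mice 7 of 10 genes were lower and 1 (Mrc1) higher in the ileum, against 18.2% and 12.9% of 17852 tested genes (31.1% in all). In control mice 7 were lower and 1 (Cd163) higher, against 30.3% and 28% of 18217 tested genes (58.3% in all). C1qa, C1qb, C1qc, Csf1r, Adgre1, Cx3cr1 and Itgax were the lower ones in both genotypes. For C1qa, ileum over duodenum was -1.19 ± 0.14 (adjusted p = 0.000117) in mutants and -1.14 ± 0.12 (adjusted p = 2.02e-05) in controls. For Csf1r it was -1.17 ± 0.18 (adjusted p = 0.000612) in mutants and -0.62 ± 0.13 (adjusted p = 0.00173) in controls. Cd163 had 0.97 ± 0.37 (adjusted p = 0.0785) in mutants and 1.74 ± 0.28 (adjusted p = 0.000582) in controls. Mrc1 had 0.82 ± 0.19 (adjusted p = 0.00838) in mutants and 0.16 ± 0.11 (adjusted p = 0.234) in controls. With the mouse as a block Flt3 passed in mutants (-0.89, adjusted p = 0.022) and in controls (-0.49, adjusted p = 0.02), and Cd163 passed in mutants too (0.95, adjusted p = 0.013). In mutants the call of Adgre1 was lost without M136, M168 or M177 (log2 values of -0.36, -0.70 and -0.62), that of Cx3cr1 without M136, M167 or M177 (log2 values of -0.50, -0.59 and -0.44) and that of Mrc1 without M177 (log2 value of 0.71); in controls that of Cx3cr1 was lost without C133, C151 or C154 (log2 values of -0.28, -0.23 and -0.30).

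The tissue differences depend on scaling. With library totals in place of scaled totals, an alternative added after seeing the data, the median over all genes was 0.51 in mutants and 0.39 in controls, where it had been -0.01 and 0.00. Lower calls then numbered 4 in mutants and 3 in controls, and Cx3cr1 changed sign in controls, to 0.09. Over all tested genes 8.24% were then lower and 49.3% higher in mutants, and 14.6% lower and 49% higher in controls. Summed smooth muscle genes were higher in the ileum, at 2700 to 4440 CPM against 1070 to 1890 CPM in the duodenum of mutants, and at 2450 to 3540 CPM against 913 to 1250 CPM in the duodenum of controls; their part in the tissue contrast was not tested.

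**Figure D4:**
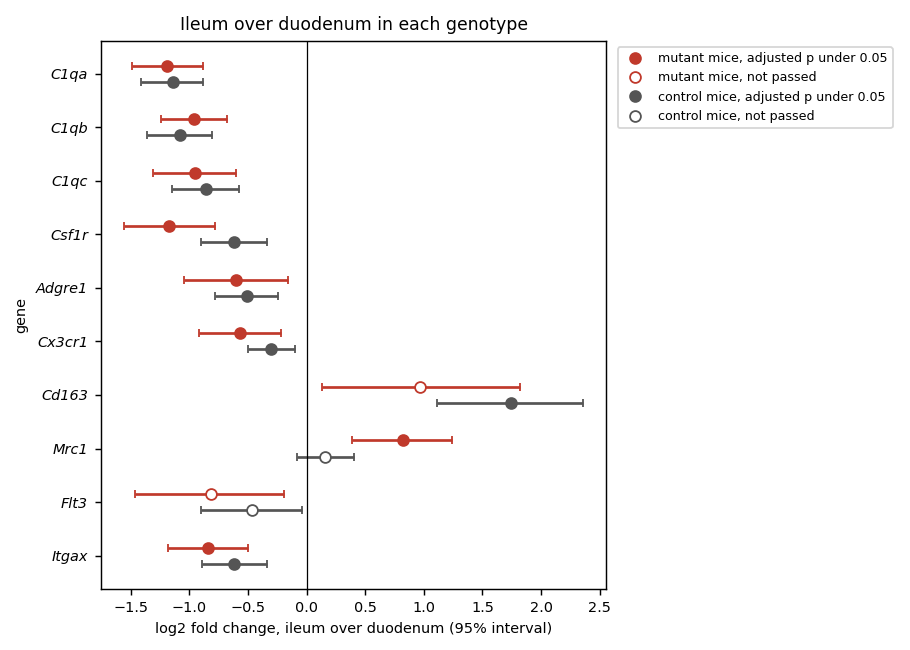
Log2 fold change of ileum over duodenum (horizontal axis) for the 10 genes (vertical axis) in mutant and control mice; bars are 95% intervals from the edgeR fit, filled points have an adjusted p under 0.05 and open points do not. The C1q genes, Csf1r, Adgre1, Cx3cr1 and Itgax lie left of 0 in both genotypes, although Cx3cr1 of controls crosses 0 when library totals are used, and Cd163 and Mrc1 lie to the right.

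Per kilobase of annotated exon the members spanned a wide range. In mutant duodenum C1qa led with 35.7 ± 0.945 CPM per kb, before C1qb with 27.2 ± 1.12, Csf1r with 18.5 ± 3.32 and C1qc with 16 ± 1.02 CPM per kb (mean ± SD, n = 4). Further down stood Itgax with 5.23 ± 0.669, Mrc1 with 4.13 ± 0.897, Adgre1 with 4.01 ± 0.626, Cx3cr1 with 2.92 ± 0.367, Cd163 with 1.29 ± 0.479 and Flt3 with 0.285 ± 0.0225 CPM per kb. The ranges of Csf1r and C1qc overlapped, as did those of Mrc1 and Adgre1. In control duodenum C1qa had 57 ± 2.62 CPM per kb, C1qb 45.8 ± 0.514, Csf1r 23.8 ± 4.03, C1qc 23.7 ± 0.964, Itgax 8.01 ± 1.09, Adgre1 7.65 ± 0.576, Mrc1 4.78 ± 0.372 and Cx3cr1 4.06 ± 0.136. Flt3 with 0.776 ± 0.102 and Cd163 with 0.629 ± 0.119 CPM per kb were close at the low end there. In mutant ileum Mrc1 had 7.29 ± 1.48 CPM per kb, near Csf1r with 8.21 ± 1.71 and C1qc with 8.23 ± 2.02. In control ileum Mrc1 had 5.28 ± 0.751, Csf1r 15.3 ± 1.86 and C1qc 12.9 ± 2.59 CPM per kb. Exon lengths came from an annotation of an earlier assembly than the one used for counting, so these levels are approximate.

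Ligands and growth factors of these cells were read from a list of 8 genes. Of these, 1 of 6 tested fell and 0 rose in mutant duodenum, and 4 of 7 fell and 0 rose in mutant ileum. For ligand genes the duodenal number that fell became 0 without C133 or C151 and 2 without M136 or M168. The share over all tested genes, for this and each list below, moved as well. With all mice 5.11% fell in the duodenum and 14.6% in the ileum. The duodenal share was 6.23%, 3.05%, 6.01% and 2.46% with M136, M167, M168 or M177 left out in turn. It was 2.29%, 2.31%, 1.96% and 2.66% with C133, C134, C151 or C154 left out in turn. The ileal share was 9.94% to 16.8% with 1 mouse left out. Il34, a CSF1R ligand made outside the blood lineages, stood at 7.49, 5.75, 7.02 and 7.5 CPM in mutant duodenum, against 11.1, 12.2, 10.5 and 9.33 CPM in control duodenum. It fell in the duodenum, with -0.61 ± 0.13 (adjusted p = 0.0235), and had -0.41 (adjusted p = 0.112) in the ileum. Csf1, the other CSF1R ligand, stood at 8.3, 12.6, 11.9 and 9.53 CPM in mutant ileum, against 18.1, 19.4, 21 and 16.3 CPM in control ileum. It fell in the ileum, with -0.79 ± 0.15 (adjusted p = 0.00226), and had -0.44 (adjusted p = 0.052) in the duodenum. Flt3l, the ligand of FLT3, stood at 0.762, 0.588, 0.647 and 0.736 CPM in mutant ileum, against 1.31, 1.44, 1.78 and 1.72 CPM in control ileum. Every mutant ileum was below every control for Csf1 and for Flt3l. Flt3l fell in the ileum, with -1.17 ± 0.22 (adjusted p = 0.00246), had -0.01 (adjusted p = 0.988) in the duodenum, and passed in the test between tissues, with -1.18 (adjusted p = 0.0234). Tgfb1, which guides macrophage maturation, and Csf2, a growth factor of myeloid cells, fell in the ileum, with -0.85 (adjusted p = 0.00693) and -1.65 (adjusted p = 0.0321). The Tgfb1 call was lost with the follicle covariate (-0.35, adjusted p = 0.237), with the pancreas covariate (-0.63, adjusted p = 0.0553) and without C134 and C154 (-0.52, adjusted p = 0.0847). Cx3cl1, the fractalkine that CX3CR1 binds, had -0.32 (adjusted p = 0.214) in the duodenum and -0.43 (adjusted p = 0.0566) in the ileum. Ligands that fell without C134 and C154 numbered 0 in the duodenum and 2 in the ileum. With 1 mouse left out, calls were lost for Il34 in the duodenum (C133, C134 or C151; -0.62 to -0.54) and Csf2 in the ileum (M168, M177, C133, C134, C151 or C154; -1.81 to -1.53).

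Of 20 other macrophage genes, 8 of 18 tested fell and 0 rose in mutant duodenum, and 11 of 18 fell and 2 rose in mutant ileum. For macrophage genes the duodenal number that fell became 4 without C133 and 5 without M177, C134, C151 or C154. Their medians were -0.51 in the duodenum and -0.94 in the ileum. Ms4a7, a membrane protein of macrophages, stood at 4.37 to 5.25 CPM in mutant duodenum against 8.51 to 10.2 CPM in control duodenum and fell, with -1.01 ± 0.13 (adjusted p = 0.00182). Tyrobp and Fcer1g, adaptors of myeloid receptors, fell in the duodenum, with -0.97 (adjusted p = 0.0064) and -0.69 (adjusted p = 0.0115), and so did the lysozyme gene Lyz2, with -1.40 (adjusted p = 0.00875). Mertk, a receptor for apoptotic cells, and Ctss, the protease cathepsin S, fell in the ileum, with -1.05 (adjusted p = 0.000129) and -1.03 (adjusted p = 0.000129). Maf, which enterocytes transcribe as well, fell there with -1.15 (adjusted p = 4.72e-05). The ileal rises, named after their values were seen, were Cd14, the coreceptor for bacterial lipopolysaccharide, with 0.91 (adjusted p = 0.00174), and Trem2, a lipid receptor, with 1.66 (adjusted p = 0.00453). Trem2 was low, at 0.518 to 0.769 CPM in mutant ileum against 0.113 to 0.287 CPM in control ileum. The number that fell was 1 in the duodenum and 7 in the ileum without C134 and C154, and 3 in the duodenum and 6 in the ileum without M167 and M177.

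Of 18 genes of resident and muscularis macrophages, 2 of 14 tested fell and 2 rose in mutant duodenum, and 3 of 16 fell and 3 rose in mutant ileum. Over all tested genes 5.11% fell and 3.44% rose in the duodenum, and 14.6% fell and 19% rose in the ileum, so the ileal counts are near that background. For resident macrophage genes the duodenal number that fell became 0 without C151 and 1 without M167, M177, C133, C134 or C154; the duodenal number that rose became 0 without M167, M177, C133, C134, C151 or C154; the ileal number that fell became 5 without M167. Lyve1, a hyaluronan receptor of perivascular macrophages and of lymphatic endothelium, stood at 41.9, 38.9, 35.1 and 36 CPM in mutant ileum, against 21.9, 23.1, 21.5 and 18.1 CPM in control ileum. All mutant ilea lay above all controls. Lyve1 rose in the ileum, with 0.87 ± 0.1 (adjusted p = 0.000151), and in the duodenum, with 0.46 ± 0.11 (adjusted p = 0.0284). F13a1, coagulation factor XIII chain A, rose in the duodenum, with 1.67 (adjusted p = 0.0316), and Fcna, a ficolin, in the ileum, with 1.21 (adjusted p = 0.00549). The F13a1 call was lost without M167 and M177 (0.84, adjusted p = 0.24). Timd4, a phosphatidylserine receptor of long-lived macrophages, and Cd209b, a C-type lectin, fell in the duodenum, with -0.83 (adjusted p = 0.0297) and -1.07 (adjusted p = 0.0144). Cd36, a fatty acid receptor also of enterocytes, and Gas6, a ligand of MERTK, fell in the ileum, with -0.87 (adjusted p = 0.00053) and -0.57 (adjusted p = 0.00117). Leaving out C134 and C154, 0 in the duodenum and 3 in the ileum fell, and 0 in the duodenum and 2 in the ileum rose. Leaving out 1 mouse ended the calls of Lyve1 in the duodenum (M167, M177, C133, C134, C151 or C154; 0.40 to 0.51), F13a1 in the duodenum (M167, M177, C133, C134, C151 or C154; 1.37 to 1.82), Timd4 in the duodenum (M167, M177, C133, C134, C151 or C154; -0.90 to -0.78) and Cd209b in the duodenum (C151; -0.97).

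Of 12 monocyte genes, 3 of 11 tested fell and 0 rose in mutant duodenum, and 5 of 11 fell and 1 rose in mutant ileum. For monocyte genes the duodenal number that fell became 0 without M177 or C154 and 1 without C151; the ileal number that fell became 2 without M177 or C154 and 3 without M136, M168 or C134; the ileal number that rose became 2 without M167. Ly6c2, the surface marker of classical monocytes, fell in both tissues, with -1.36 (adjusted p = 0.0205) in the duodenum and -1.74 (adjusted p = 0.00777) in the ileum. Ms4a4c, a membrane protein gene of myeloid and lymphoid cells, also fell in both, with -2.07 (adjusted p = 0.0221) and -2.67 (adjusted p = 0.0258). It stood at 0.232, 0.476, 0.227 and 0.233 CPM in mutant ileum, against 0.485, 3.51, 0.469 and 3.23 CPM in control ileum, and only C134 and C154 were far above the mutants. Its ileal call was lost with the follicle covariate (-0.01, adjusted p = 0.99), with the pancreas covariate (-0.79, adjusted p = 0.302), with the smooth muscle covariate (-1.59, adjusted p = 0.0914), without C134 and C154 (-0.64, adjusted p = 0.356) and without M167 and M177 (-3.01, adjusted p = 0.118), and its duodenal call with the pancreas covariate (-1.09, adjusted p = 0.193) and without C134 and C154 (-1.29, adjusted p = 0.201). The ileal Ms4a4c call was also lost with limma-voom (-2.02, adjusted p = 0.108) and without the low count filter (-2.65, adjusted p = 0.0916). Its duodenal call was also lost with the smooth muscle covariate (-1.66, adjusted p = 0.0837) and without M167 and M177 (-1.66, adjusted p = 0.14). Fn1, fibronectin, fell in the duodenum, with -0.91 (adjusted p = 0.0262), and Ace, an enzyme of enterocyte brush borders, in the ileum, with -1.63 (adjusted p = 0.00597). Other cells of the gut wall transcribe both. Chil3, a chitinase-like protein of myeloid cells, was the ileal rise, with 3.42 (adjusted p = 0.0127), at 0.596 to 2.64 CPM in mutant ileum against 0 to 0.331 CPM in control ileum. This call was lost without M167 and M177 (2.64, adjusted p = 0.0608) and without the low count filter (3.43, adjusted p = 0.0501). Ccr2, the receptor by which monocytes leave the marrow, had -0.84 (adjusted p = 0.103) in the duodenum and -0.78 (adjusted p = 0.0679) in the ileum. Leaving out C134 and C154, 1 in the duodenum and 3 in the ileum fell. Single mice also ended calls, of Ly6c2 in the duodenum (M177, C151 or C154; -1.33 to -1.15), Ms4a4c in the duodenum (M167, M177, C134 or C154; -2.01 to -1.68), Fn1 in the duodenum (M177, C133, C151 or C154; -0.95 to -0.81) and Ms4a4c in the ileum (M136, M168, M177, C134 or C154; -2.56 to -2.20).

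**Figure D5:**
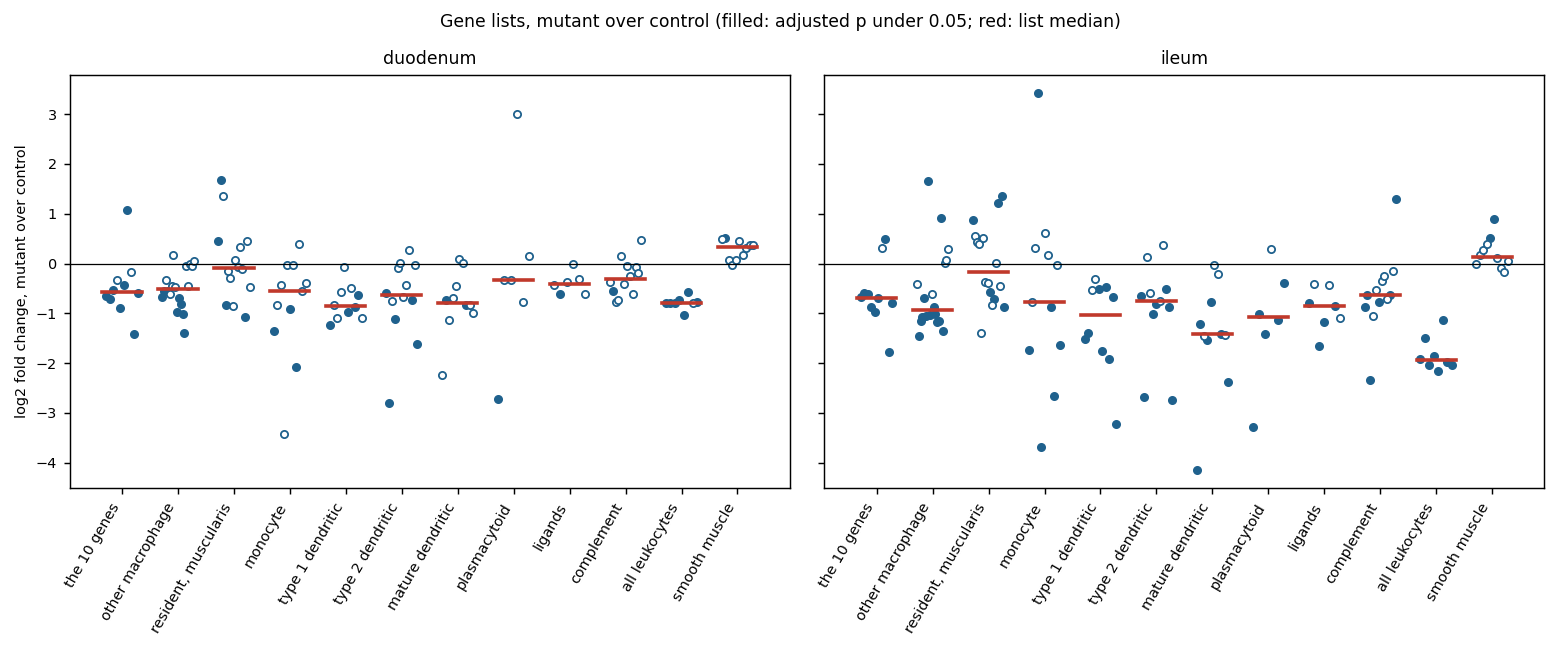
Log2 fold change of mutant over control (vertical axis) for each tested gene of 12 lists (horizontal axis) in the duodenum (left) and the ileum (right); filled points have an adjusted p under 0.05, open points do not, and red lines are list medians. Medians of the dendritic cell and leukocyte lists lie below 0 in both tissues, and those of the resident and muscularis macrophage genes are -0.10 in the duodenum and -0.18 in the ileum.

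Of 10 genes of type 1 conventional dendritic cells, 4 of 10 tested fell and 0 rose in mutant duodenum, and 8 of 10 fell and 0 rose in mutant ileum. For type 1 genes the duodenal number that fell became 0 without M177, 1 without M167, C151 or C154, 2 without C133 or C134 and 8 without M168. Over all tested genes the share that fell was 2.46% without M177, 1.96% without C151 and 6.01% without M168, beside 5.11% with all mice. Their medians were -0.86 in the duodenum and -1.03 in the ileum. Xcr1, the chemokine receptor that defines the subset, stood at 0.912, 1.22, 2.99 and 2.3 CPM in mutant duodenum, against 3.78, 4.19, 4.59 and 5.24 CPM in control duodenum. Xcr1 stood at 1.14, 1.16, 1.83 and 0.61 CPM in mutant ileum, against 2.48, 4.27, 3.32 and 3.83 CPM in control ileum. No mutant library reached a control in either tissue. Xcr1 fell, with -1.24 ± 0.33 (adjusted p = 0.0429) in the duodenum and -1.52 ± 0.31 (adjusted p = 0.00371) in the ileum. The ileal call of Xcr1 was lost with the follicle covariate (-1.1, adjusted p = 0.0871). Clec9a, a receptor for dead cells on the same subset, fell in the ileum, with -1.39 (adjusted p = 0.00182), and had -0.84 (adjusted p = 0.129) in the duodenum. Itgae, the CD103 integrin chain shared with intraepithelial T cells, fell in both, with -0.88 (adjusted p = 0.0297) and -1.91 (adjusted p = 4.32e-05). The duodenal calls of Xcr1 and Itgae were lost with the pancreas, follicle or smooth muscle covariate, and with either pair of mice left out. The number that fell was 2 in the duodenum and 6 in the ileum without C134 and C154, and 0 in the duodenum and 4 in the ileum without M167 and M177. With 1 mouse left out, calls were lost for Xcr1 in the duodenum (M167, M177, C133, C134, C151 or C154; -1.36 to -1.09) and Itgae in the duodenum (M167, M177, C134, C151 or C154; -0.93 to -0.72).

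Of 12 genes of type 2 conventional dendritic cells, 5 of 12 tested fell and 0 rose in mutant duodenum, and 7 of 11 fell and 0 rose in mutant ileum. For type 2 genes the duodenal number that fell became 3 without C154; the ileal number that fell became 4 without M177; the ileal number that rose became 1 without M167. Cd209a, a C-type lectin of this subset and of monocyte-derived cells, stood at 0.852, 0.795, 0.46 and 0.712 CPM in mutant duodenum, against 6.25, 4.28, 5.86 and 3.9 CPM in control duodenum. Cd209a stood at 0.248, 0.378, 0.245 and 0.251 CPM in mutant ileum, against 2.59, 1.65, 1.33 and 1.84 CPM in control ileum. Every mutant value was below every control of the same tissue. Cd209a fell, with -2.81 ± 0.25 (adjusted p = 0.000268) in the duodenum and -2.68 ± 0.29 (adjusted p = 0.000118) in the ileum. Mgl2, another lectin of the subset, fell in the duodenum, with -1.12 (adjusted p = 0.005). Zbtb46, a transcription factor of conventional dendritic cells, fell in the ileum, with -0.82 (adjusted p = 0.00578). Sirpa, a receptor shared with macrophages, fell in both, with -0.59 (adjusted p = 0.0187) and -0.65 (adjusted p = 0.00315). With the follicle covariate the ileal calls of Zbtb46 (-0.71, adjusted p = 0.0863) and Sirpa (-0.49, adjusted p = 0.0857) were lost. The duodenal call of Sirpa was lost with the pancreas or follicle covariate, and with either pair of mice left out. Leaving out C134 and C154, 2 in the duodenum and 4 in the ileum fell. Leaving out 1 mouse ended the call of Sirpa in the duodenum (C151 or C154; -0.59 to -0.54).

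Of 12 genes of mature dendritic cells, 2 of 10 tested fell and 0 rose in mutant duodenum, and 6 of 10 fell and 0 rose in mutant ileum. For mature dendritic cell genes the duodenal number that fell became 0 without M136, M167, M177, C133, C134, C151 or C154 and 4 without M168. Cd86, a costimulatory ligand for T cells, fell in both tissues, with -0.83 (adjusted p = 0.0326) and -1.41 (adjusted p = 0.00282). Ccr7, which guides dendritic cells and lymphocytes to lymph nodes, stood at 0.0497, 0.14, 0.297 and 0.233 CPM in mutant ileum, against 0.72, 5.94, 0.769 and 5.4 CPM in control ileum. C134 and C154 were far above the other controls, and the ileal fall was -4.14 ± 0.93 (adjusted p = 0.0112), a call lost with the follicle covariate (-1.31, adjusted p = 0.0714) and without M167 and M177 (-4.16, adjusted p = 0.114). The ileal call of Cd86 was lost with the follicle covariate (-0.87, adjusted p = 0.0895). Of 8 genes of plasmacytoid dendritic cells, 1 of 6 tested fell and 0 rose in mutant duodenum, and 5 of 6 fell and 0 rose in mutant ileum. Over all tested genes 5.11% fell in the duodenum and 14.6% in the ileum. T cell genes fell in the same ilea, 12 of 12 tested, and these counts do not tell cell types apart. For plasmacytoid genes the ileal number that fell became 3 without C154. Siglech, a receptor of these cells, fell in both tissues, with -2.72 (adjusted p = 0.00533) and -3.28 (adjusted p = 0.00301), and the ileal call was lost with the follicle covariate (-1.73, adjusted p = 0.0945) and without C134 and C154 (-2.16, adjusted p = 0.0558). Without C134 and C154, mature dendritic cell genes that fell numbered 0 in the duodenum and 2 in the ileum, and plasmacytoid ones 1 in the duodenum and 1 in the ileum. Leaving out 1 mouse ended the call of Cd86 in the duodenum (M136, M167, M177, C133, C134, C151 or C154; -0.87 to -0.76).

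Of 12 other complement genes, 1 of 12 tested fell and 0 rose in mutant duodenum, and 5 of 12 fell and 1 rose in mutant ileum. For complement genes the duodenal number that fell became 0 without M177, C133, C134, C151 or C154; the duodenal number that rose became 1 without M136. C1s1, a protease that acts in one complex with C1q, stood at 13.8 to 17.5 CPM in mutant duodenum against 22.2 to 27.6 CPM in control duodenum and fell there, with -0.56 ± 0.12 (adjusted p = 0.0232). In the ileum C2, a substrate of C1s, fell with -2.34 ± 0.25 (adjusted p = 0.000111), C1ra, the protease that activates C1s, with -0.88 (adjusted p = 0.000634), and C3ar1, the receptor for C3a on myeloid cells, with -0.78 (adjusted p = 0.00365). C1qbp rose in the ileum, with 1.29 (adjusted p = 4.29e-05); it encodes a mitochondrial protein that also binds C1q. Leaving out C134 and C154, 0 in the duodenum and 3 in the ileum fell. With 1 mouse left out, the call was lost for C1s1 in the duodenum (M177, C133, C134, C151 or C154; -0.60 to -0.48).

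Markers of other cells moved in the same libraries. Of 8 genes common to leukocytes, 7 of 8 tested fell and 0 rose in mutant duodenum, and 8 of 8 fell and 0 rose in mutant ileum. For leukocyte genes the duodenal number that fell became 2 without C151 or C154, 3 without M177 or C134 and 4 without M167; the ileal number that fell became 5 without M136, M167 or M177. Their summed level was 204 to 290 CPM in mutant duodenum against 346 to 517 CPM in control duodenum, and 97.4 to 148 CPM in mutant ileum against 212 to 549 CPM in control ileum. Of 12 T cell genes, 6 of 12 tested fell and 0 rose in mutant duodenum, and 12 of 12 fell and 0 rose in mutant ileum; they summed to 50.1 to 87.2 CPM in mutant duodenum against 100 to 142 CPM in control duodenum, and to 17.8 to 31.5 CPM in mutant ileum against 60.3 to 107 CPM in control ileum. For T cell genes the duodenal number that fell became 2 without C134 or C154 and 3 without M167, M177 or C151. Of the 12 B cell and follicle genes, 1 of 6 tested fell and 0 rose in mutant duodenum, and 10 of 12 fell and 0 rose in mutant ileum. For B cell and follicle genes the duodenal number that fell became 0 without M167, M177 or C134 and 2 without M168; the ileal number that fell became 1 without M136, M167 or M177 and 2 without M168, C134 or C154. Of 8 MHC class II genes, which macrophages, dendritic cells, B cells and epithelium transcribe, 7 of 8 tested fell and 0 rose in mutant duodenum, and 8 of 8 fell and 0 rose in mutant ileum. Of 8 epithelial genes, 0 of 8 tested fell and 0 rose in mutant duodenum, and 0 of 8 fell and 2 rose in mutant ileum, and none of the 18 pancreas genes passed in either tissue. No gene of these lists was at 0 in all libraries. With the follicle level as a covariate, 5 in the duodenum and 3 in the ileum of the 10 members fell and none rose, while 2.36% of tested genes fell and 0.761% rose in the duodenum, and 5.75% fell and 9.25% rose in the ileum. Members that no longer passed had Cx3cr1 (-0.52), Cd163 (0.83) and Itgax (-0.57) in the duodenum, and C1qa (-0.43), C1qb (-0.44), C1qc (-0.51), Cx3cr1 (-0.56), Mrc1 (0.28) and Itgax (-0.55) in the ileum. With the pancreas level, 4 in the duodenum and 5 in the ileum fell and none rose, while 1.06% of tested genes fell and 0.244% rose in the duodenum, and 13.1% fell and 17.3% rose in the ileum. Here they were C1qc (-0.56), Cx3cr1 (-0.49), Cd163 (0.88) and Itgax (-0.52) in the duodenum, and C1qa (-0.57), C1qb (-0.52), C1qc (-0.62) and Mrc1 (0.41) in the ileum. The rule that names genes of the other lists took 33 calls in the duodenum and 48 in the ileum. Of these, 15 and 23 were lost with the follicle covariate, 27 and 8 with the pancreas covariate, 16 and 3 with the smooth muscle covariate, 25 and 11 without C134 and C154, and 24 and 14 without M167 and M177.

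Genes whose log2 CPM, less the group mean, was most like that of a member over the 16 libraries were named by Pearson's r among 14248 genes. Those closest to C1qa were C1qc (0.91), C1qb (0.91), Unc93b1 (0.89), Ctsh (0.84) and Cd4 (0.84). Itgax was tracked most closely by Cd4 (0.93), Tlr12 (0.90), Cd68 (0.88), Dnase1l3 (0.86) and Mpeg1 (0.86), and Flt3 by Runx3 (0.93), Arl4c (0.92), Pik3cd (0.90), Csf2rb (0.89) and Itgb2 (0.89). For Cd163 the list was Syn1 (0.94), Creld1 (0.94), Slc7a14 (0.93), Tnxb (0.93) and Sdk2 (0.93), and for Mrc1 it was Pcdhga6 (0.90), Bmp3 (0.88), Ston1 (0.86), Vangl2 (0.86) and Kifc2 (0.85). Syn1 encodes synapsin, a neuronal protein. Among the 8 other members pairwise r ran from 0.27 to 0.92 with a median of 0.50. Pairs of Cd163 or Mrc1 with these 8 ran from -0.65 to 0.56 with a median of -0.22, and Cd163 with Mrc1 had 0.57. The libraries share 8 mice and differ in tissue content, so these values are descriptions.

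Of the 10 members 7 had a promoter window in the RefSeq table; C1qa, Csf1r and Adgre1 had none. GAGGAA occurred on either strand in 3 of the 7 (Mrc1, C1qb and C1qc), beside 28.3% of 32851 mouse windows. The RUNX core TGTGGT was found on either strand in C1qc, Itgax and Cx3cr1, beside 16.8% of windows. In 0 of the 7 were the ETS and IRF composite (2.72% of windows), the MAF site TGCTGAC (4.67%) and the CEBP motif TTGCNNAA (10.8%), each searched on either strand.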

How the data were processed

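Total RNA was depleted of ribosomal RNA and made into stranded libraries, per the labels' protocols. The deposited values are raw whole-number counts per Ensembl gene. The submitters' processing notes name HTSeq 0.6.1p1, STAR 2.5.3a, Bowtie2 2.2.8, cutadapt 1.10 and the assembly mm39. How strand was treated in counting, and which annotation was used, is not given in the sources used here, so overlapping antisense genes may share reads. GENCODE names from an earlier assembly matched 52083 of 55359 identifiers; unnamed ones held 1.02% of counts. Reads of near-identical genes may be split, so Ly6c2, Ms4a4c, Cd209a, Cd209b, Lyz2 and Pcdhga6 are uncertain.

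Depth was 40.9 to 67.2 M counts. Genotype was tested within each tissue in edgeR 4.0.16 (with limma 3.58.1 under R 4.3.3): filterByExpr, trimmed mean of M values scaling, robust quasi-likelihood F test (two-sided) and Benjamini-Hochberg adjustment over all tested genes, called under 0.05. The difference between tissues and the averaged effect used all 16 libraries, and tissue contrasts the 8 of a genotype. SE is the log2 fold change over the root of F. These comparisons share libraries. Title numbers pair the tissues of a mouse: same-mouse residuals correlated at 0.38 to 0.69, above the best other mouse (0.20 to 0.38) in 8 of 8 mice. P-values within a tissue measure the spread between these mice; the averaged effect, the difference between tissues and the tissue contrasts, outside the mouse block, treat both libraries of a mouse as separate replicates.

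The 10 members and the 22 other lists were chosen with earlier results of these data known. From a list, up to 4 passing genes of smallest p per tissue are named, and 1 gene that meets this rule is not reported here; likeness is given for 5 members and genes of at least 1 CPM. Cx3cl1, Ccr2, values of a gene in the tissue where it did not pass, and the Flt3l difference between tissues were chosen after their values were seen. Alternatives were DESeq2 1.42.0 and its size factors, limma-voom, other low count filters, each mouse or either pair left out, pancreas, follicle and smooth muscle covariates, pancreas genes removed, 1 fit of all libraries, the mouse as a block and, added later, library totals. The fits were tested on simulated data.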

Additional observations from a re-analysis of the deposited data

Results flagged for a closer look

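Of 40 groups of 4 libraries (10 genes in 4 groups), 2 had a level far from the other 3 by Dixon's test, which marks about 1 in 20 groups by chance, here about 2. C1qa in the ileum of C151 stood at 19.3 CPM, below the 28.1 to 29.9 CPM of the other control ilea, and the same library was also the lowest control ileum for C1qb and C1qc. C1qb in the duodenum of M167 stood at 27.8 CPM, below the 30.2 to 30.3 CPM of the other mutant duodena, a small step beside the control duodena at 49.3 to 50.6 CPM.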

How the results depend on the processing

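Of 940 member values over all alternatives, 815 kept their direction and side of the threshold, 87 lost the threshold, 22 gained it and 16 changed sign. Members lower in the duodenum (7) numbered 4 with the pancreas covariate and 4 without C134 and C154, and 5 to 7 with 1 mouse left out. The 1 higher there (Cd163) became 0 with limma-voom, each of the 3 covariates, either pair of mice left out and 1 fit of all libraries (0 to 1 with 1 mouse left out). Members lower in the ileum (8) numbered 5 with the pancreas and 3 with the follicle covariate, 5 without C134 and C154, 5 without M167 and M177, and 7 to 8 with 1 mouse left out. The 1 higher there (Mrc1) became 0 with each covariate, either pair left out and library totals (0 to 1 with 1 mouse left out). Ileal Cd163 was -0.01 to 0.51 with 1 mouse left out, -0.21 with the pancreas and -0.14 with the follicle covariate, -0.05 without C134 and C154 and -0.25 without M167 and M177. In these fits the cause was not tested.

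Between tissues, 0 lower and 0 higher differences became 1 higher with DESeq2, the replicate block and library totals, and were 0 to 1 lower and 0 to 1 higher with 1 mouse left out. Over all tested genes 9.76% were higher with DESeq2, 10.8% with the block and 11.1% with library totals. With 1 mouse left out 0.436% to 5.07% were lower and 0.508% to 5.97% higher. Differences near 0 changed sign. With 1 mouse left out C1qa ran from -0.19 to 0.03, C1qb from 0.00 to 0.18, C1qc from -0.31 to 0.00 and Adgre1 from -0.23 to 0.14; with library totals C1qa was 0.09, C1qc 0.04 and Adgre1 0.05. Ileum over duodenum, library totals gave 4 lower and 2 higher in mutants, and 3 lower and 2 higher in controls, with Cx3cr1 at 0.09. The shares over all tested genes were then 8.24% lower and 49.3% higher in mutants, and 14.6% and 49% in controls. DESeq2 and the replicate block gave 2 higher in mutants, and leaving out 1 mouse 5 to 6 lower and 0 to 1 higher in mutants and 6 to 7 lower in controls. Over all tested genes 16.2% were higher in mutants with DESeq2 and 17.1% with the block. With 1 mouse left out 13.4% to 14.7% were lower and 8.67% to 10.1% higher in mutants, and 24.4% to 27% lower in controls. The averaged effect, with 0 higher, had 1 with DESeq2 and with the 1 CPM filter, and 0 to 2 with 1 mouse left out. Over all tested genes 16.5% were higher with DESeq2, 19.5% with that filter and 12.1% to 17.3% with 1 mouse left out. These member counts are near that background. Beyond Mrc1, Cd163 and Flt3 as given above, the mouse block changed no other member call. Library totals moved the median of all genes to -0.11 in the duodenal genotype contrast. A p that missed the threshold with 4 mice a group does not show equal levels.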

Other observations

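Of 16 cytokine and chemokine genes of gut macrophages, 2 of 13 tested fell and 0 rose in mutant duodenum, and 4 of 12 fell and 0 rose in mutant ileum. For cytokine genes the duodenal number that fell became 1 without M177; the duodenal number that rose became 1 without M168; the ileal number that fell became 7 without M168; the ileal number that rose became 1 without M168 or C154. Cxcl9, a chemokine induced by interferon gamma, stood at 2.04 to 7.58 CPM in mutant duodenum against 13.7 to 20.6 CPM in control duodenum and fell, with -1.91 ± 0.35 (adjusted p = 0.0172). In the ileum Cxcl9 stood at 0.546 to 1.78 CPM in mutant ileum against 4.09 to 9.24 CPM in control ileum and fell, with -2.74 ± 0.38 (adjusted p = 0.000616). Cxcl10, induced by the same cytokine, fell in the duodenum, with -2.12 (adjusted p = 0.00875). Il1b, the cytokine interleukin 1 beta, fell in the ileum, with -1.63 (adjusted p = 0.00465), as did the chemokine genes Ccl3, with -1.99 (adjusted p = 0.0151), and Ccl6, with -0.71 (adjusted p = 0.00328). With the follicle covariate the ileal calls of Ccl6 (-0.44, adjusted p = 0.118), Il1b (-1.33, adjusted p = 0.0694) and Ccl3 (-2.17, adjusted p = 0.0649) were lost. The Ccl3 call was also lost without M167 and M177 (-1.38, adjusted p = 0.0588). In the duodenum the calls of Cxcl9 (-2.13, adjusted p = 0.0792) and Cxcl10 (-2.28, adjusted p = 0.0599) were lost without C134 and C154. The duodenal Cxcl9 call was lost with the pancreas covariate too (-2.06, adjusted p = 0.0706). With 1 mouse left out, the call was lost for Cxcl9 in the duodenum (M177; -1.83).

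Of 12 transcription factor and signalling genes linked to CSF1R, 3 of 12 tested fell and 0 rose in mutant duodenum, and 5 of 12 fell and 0 rose in mutant ileum. For signalling genes the duodenal number that fell became 0 without M167 or M177 and 1 without C133, C134, C151 or C154. Spi1, which encodes PU.1, stood at 5.61, 6.22, 6.91 and 5.06 CPM in mutant duodenum, against 8.15, 9.98, 8.26 and 9.35 CPM in control duodenum. The genotypes did not overlap there, and Spi1 fell, with -0.56 ± 0.14 (adjusted p = 0.0355). Spi1 stood at 2.28, 1.82, 4.39 and 2.35 CPM in mutant ileum, against 5.06, 6.32, 4.31 and 7.47 CPM in control ileum. M168 lay within the control range, and the fall was -1.08 ± 0.28 (adjusted p = 0.0136). This ileal call was lost with the follicle covariate (-0.61, adjusted p = 0.248) and with the pancreas covariate (-0.82, adjusted p = 0.0803). It was also lost without C134 and C154 (-0.75, adjusted p = 0.117) and without M167 and M177 (-0.75, adjusted p = 0.102). Nr1h3, the liver X receptor alpha, fell in the duodenum, with -0.63 (adjusted p = 0.0236), and Lyn and Inpp5d, a kinase and a phosphatase of immune receptor signalling, fell in the ileum, with -0.86 (adjusted p = 0.000508) and -1.50 (adjusted p = 0.00199). Leaving out 1 mouse ended the calls of Spi1 in the duodenum (M136, M167, M177, C133, C134, C151 or C154; -0.60 to -0.49) and Nr1h3 in the duodenum (M167, M177 or C133; -0.65 to -0.57). Spi1 is also among the other macrophage genes.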
